A study of Homo sapiens with 14 samples.

Results

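The genes described here are 10 intracellular components of transforming growth factor beta (TGF-beta) signalling: SMAD2, SMAD3, SMAD4, SMAD5, SMAD6, SMAD7, PMEPA1, SKI, SKIL and TGIF1. They were taken by gene symbol from a table of N6-methyladenosine (m6A) at single adenosines, where they hold 523 of the 407343 listed sites, and they are 10 of the 13744 genes with a listed site. PMEPA1 was chosen by its measured levels, because a site in its last exon kept its m6A with STM3675 in CAOV3 cells. Its values in that contrast are therefore given as a description with no test. The other 9 genes joined it as members of the same pathway.

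GLORI, which was used to measure m6A, converts adenosine without the methyl group by glyoxal and nitrite, and it then appears as G in the reads. m6A resists the conversion and appears as A, so the level of a site is the share of A among its A and G reads, in percent. CAOV3 cells were exposed to 1 uM STM3675 for 24 h, and the cells set against them were kept for 24 h with the solvent DMSO alone. The other lines were kept with DMSO only: COV644, EFO21 and SKOV3, which like CAOV3 are labelled ovarian, A549 (lung carcinoma) and OE21 (oesophageal). Each of the 7 groups had 2 libraries of polyadenylated RNA, and the labels do not say whether these were separate cultures. The p-values thus speak at most of the spread between libraries, which may be technical. The title of the series names inhibition of METTL3, the enzyme that places most m6A on messenger RNA, and the labels give STM3675 only by its code.

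TGF-beta and activin receptors phosphorylate SMAD2 and SMAD3, while receptors for bone morphogenetic proteins (BMPs) phosphorylate SMAD5 and its relatives. These receptor-regulated SMADs bind the shared partner SMAD4 and act on genes in the nucleus. SMAD6 and SMAD7 are inhibitory SMADs, PMEPA1 is a membrane protein that holds back SMAD2 and SMAD3, and SKI, SKIL and TGIF1 are nuclear corepressors of SMAD complexes. Several of the inhibitors are themselves induced by the pathway, which makes them feedback genes. METTL3 methylates adenosines in DRACH, where D is any base but C, R is A or G, and H is any base but G, and m6A is concentrated in last exons and long internal exons.

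The 5 bases around the retained PMEPA1 site are shown beside those of a DRACH site of each other gene. They are those of the deposited table, written 5′ to 3′ with DNA letters, and the capital marks the measured adenosine. Each site is named by its gene and its GRCh38 position.
PMEPA1 57649648: aaAac
SMAD2 47841749: ggAct
SMAD3 67194916: ggAct
SMAD5 136177516: ggAct
SMAD4 51078463: agAct
SMAD6 66702517: ggAct
SMAD7 48921275: aaAct
SKI 2308291: agAct
SKIL 170360898: gaAct
TGIF1 3457774: ggAca
The PMEPA1 site lies outside DRACH, because the adenosine is followed by A and not by C. The sites of the other genes were chosen among DRACH sites, so the set does not show PMEPA1 to be alone in this. Methylated sites outside DRACH in SMAD5 and SMAD6 are given below.

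Reads with A or G at all listed sites came to between 14047302 and 28663588 per library. Squamous markers (TP63, KRT5, KRT6A, SOX2 and DSG3) summed to 7727 to 7756 CPM (counts scaled to the same library total) in OE21 and to between 4.03 and 54.8 CPM in the other lines with DMSO. Of 5 ovarian markers 4 were listed, with summed levels of 332 to 1462 CPM in the 4 ovarian lines and 11.8 to 30.6 CPM in A549 and OE21. These sums rest on different genes, and not every marker followed them: mean PAX8 was 22.5 CPM in COV644 and 22.8 CPM in OE21, MSLN made up 1435 CPM in COV644, EMX2 was above 1 CPM only in EFO21, and WT1 was highest in A549, at 8.38 CPM. Of 4 lung markers only NKX2-1 was listed, at 0.0821 and 0.136 CPM in A549, so the lung label was not borne out by these markers. The sum of the epithelial markers EPCAM, KRT8, KRT18 and CDH1 was lowest in SKOV3, at 84.4 and 85 CPM, against 260 to 1754 CPM in the other lines, although of the single genes only CDH1 was lowest there. Of 3 markers of other cells 2 were listed, PECAM1 (endothelium) and COL1A1 (fibroblasts), and they summed to 509 to 547 CPM in EFO21 and to 12.7 to 183 CPM in the other lines. In EFO21 this was nearly all PECAM1, with a mean of 519 CPM, against at most 9.60 CPM in any other line.

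The 523 sites are spread unevenly over the genes, from 93 in SMAD3, 83 in SKIL, 58 each in SKI and SMAD5 and 52 in PMEPA1 to 44 in SMAD2, 40 in SMAD4, 39 in SMAD6, 29 in SMAD7 and 27 in TGIF1. Of all 523, 218 are DRACH sites and 364 lie in last exons. SKIL and SMAD6 differ from this layout. SKIL, a SKI-related corepressor, has 34 of 83 sites in its last exon, and its most methylated sites lie in internal exon 2. SMAD6 has 13 of 39 in its last exon, with its named sites in first exon 1. A site is in the table because it reached 20 reads and 25% in at least 1 DMSO library, so levels with DMSO are those of sites chosen for being high in some line.

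m6A was lower with STM3675 in all 9 genes that were tested. In CAOV3, 303 sites of these 9 genes had at least 20 reads in all 4 libraries, and 168 did not and were left untested. Of the 153 DRACH sites among those tested, 133 (86.9%) had a lower level with STM3675, beside 73.9% of all tested DRACH sites of the table, by a quasi-binomial test moderated with limma and adjusted over 185923 sites. Outside DRACH 21 of 150 (14.0%) were lower, beside 7.87% of all such sites, and 0 member sites were higher, beside 0.309% of all sites. The median level over the 153 DRACH sites was 10.2% with STM3675 and 44.2% with DMSO, and the median difference was -35.3 percentage points. Over all tested DRACH sites the medians were 9.23% with STM3675 and 37.0% with DMSO, with a median difference of -28.4 points. When only sites listed because of a line other than CAOV3 were kept, 131 member DRACH sites were lower, as were 53123 of all DRACH sites. How many were then tested was not counted. The quasi-binomial test gave every site the same spread. Its p-values thus follow read depth and the size of a difference, not how closely the libraries of a site agreed. With limma on log odds, which takes in the spread between the libraries of a site, 113 member DRACH sites and 47313 of all DRACH sites were lower. At SKIL 170360760 the adjusted p was 1.3e-126 in the quasi-binomial test with limma and 0.0045 with limma on log odds.

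The sites that were not called mostly had low levels with DMSO. All 70 DRACH sites of the 9 genes at 50% or more with DMSO were lower with STM3675, beside 99.9% of all such sites. The 20 DRACH sites that were not called had a median level of 10.8% with STM3675 and 18.9% with DMSO, and 3 of them reached 25% with DMSO. In SKI 2304353 the DMSO libraries disagreed: the level was 19.3% and 9.09% with STM3675 and 10.7% and 42.3% with DMSO (adjusted p = 0.44 in the quasi-binomial test with limma). SKIL 170360487 had 19.0% and 6.67% with STM3675 and 31.9% and 31.3% with DMSO. SMAD5 136181677 had 17.6% and 23.5% with STM3675 and 23.7% and 30.8% with DMSO. The groups overlapped at the SKI site and nearly met at the SMAD5 site, while at the SKIL site both STM3675 libraries were lower.

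**Figure D1:**
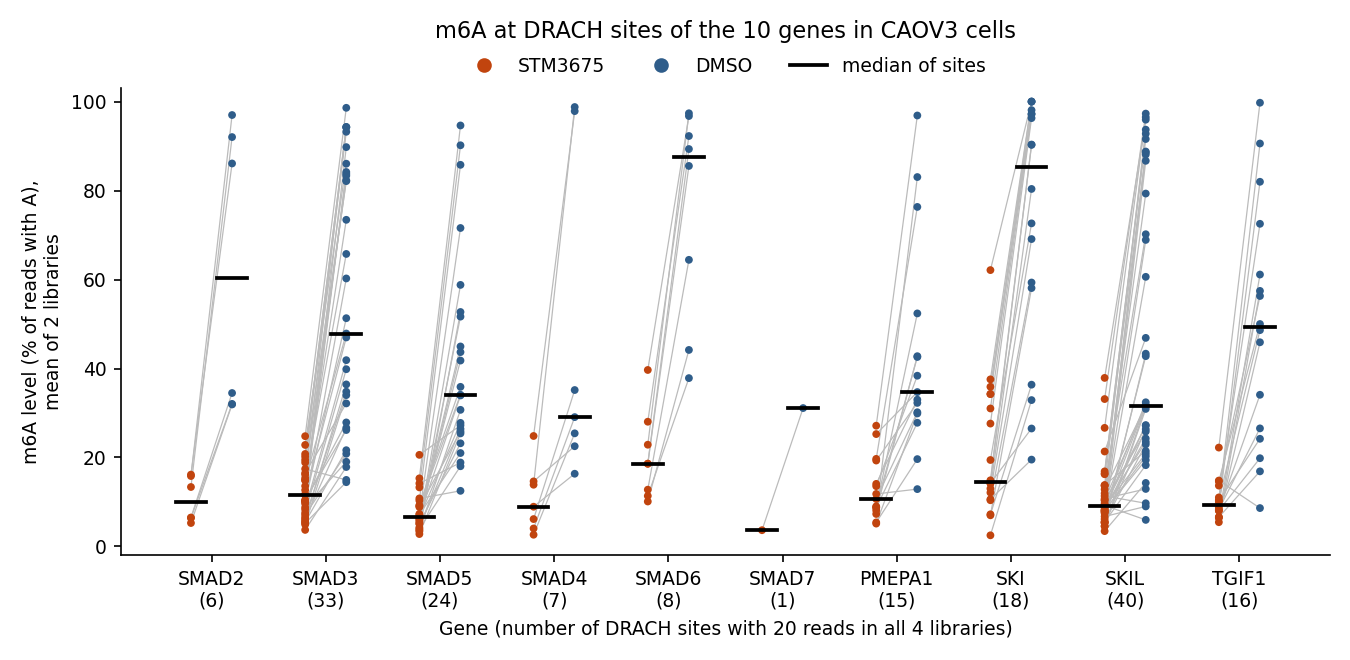
m6A level (percent of reads with A, mean of 2 libraries) of each DRACH site with at least 20 reads in all 4 CAOV3 libraries, by gene, with STM3675 (left) and DMSO (right) joined by a grey line and the median of sites as a black bar. With STM3675 all points but the SKI site at 62.1% lie under 40%.

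Among the receptor-regulated SMADs, SMAD2 transmits TGF-beta and activin signals. Its 6 tested DRACH sites were all lower. Summed over them, its level was 9.95% ± 0.57 with STM3675 and 61.0% ± 1.7 with DMSO (SD, n = 2 libraries each here and throughout). At SMAD2 47841749, on the minus strand of chromosome 18 in last exon 11, the level was 15.5% and 16.1% with STM3675, against 97.1% and 96.9% with DMSO. Both STM3675 libraries lay far under both DMSO libraries, at 465 to 950 reads each. The table gives this last exon a length of 32994 nt, and the site lies 202 nt into it.

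SMAD3, the other TGF-beta-activated SMAD, had the most sites, and 29 of its 33 tested DRACH sites were lower. Its summed level was 13.7% ± 0.23 with STM3675 and 60.7% ± 0.66 with DMSO. SMAD3 67194916, on the plus strand of chromosome 15, lies 4504 nt into last exon 9 of 4757 nt. It had 24.9% and 24.7% with STM3675 and 98.7% and 98.5% with DMSO. Its libraries agreed to within 1 point in each group, and none of the 16 SMAD3 DRACH sites at 50% or more with DMSO kept 25% with STM3675.

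SMAD5 transmits BMP signals, and 21 of its 24 tested DRACH sites were lower. Its summed level was 7.63% ± 0.065 with STM3675 and 46.8% ± 0.85 with DMSO, the lowest with STM3675 among the genes with more than 1 tested site. SMAD5 136177516, on the plus strand of chromosome 5 and 180 nt into last exon 8, had 13.4% and 17.2% with STM3675 and 91.7% and 97.6% with DMSO. A SMAD5 site just outside DRACH fell as far: SMAD5 136153982 (ggAcg, internal exon 3) had 8.11% and 8.06% with STM3675 and 83.2% and 76.5% with DMSO (adjusted p = 1.2e-44, quasi-binomial test with limma). The groups did not overlap at either site.

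SMAD4, the shared partner, had 5 of 7 tested DRACH sites lower, and its summed level was 9.33% ± 1.5 with STM3675 and 42.0% ± 4.9 with DMSO. SMAD4 51078463, on the plus strand of chromosome 18 and 208 nt into last exon 12, had 24.7% and 25.0% with STM3675 and 98.7% and 97.0% with DMSO. SMAD4 51048760 in internal exon 3 had 5.41% and 6.90% with STM3675 and 37.0% and 33.3% with DMSO. Of the 40 listed SMAD4 sites 24 had too few reads to be tested.

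The inhibitory SMADs differed in how much could be measured. All 8 tested DRACH sites of SMAD6, which holds back BMP signalling in particular, were lower, and its summed level was 18.9% ± 1.1 with STM3675 and 68.9% ± 6.5 with DMSO. SMAD6 66702517, on the plus strand of chromosome 15 and 282 nt into first exon 1, had 39.1% and 40.3% with STM3675 and 96.3% and 97.2% with DMSO. SMAD6 66703771, further into the same exon, had 20.0% and 25.7% with STM3675 and 96.4% and 98.4% with DMSO. Neither site overlapped between groups. SMAD6 66702517 was chosen for the highest ratio of STM3675 to DMSO level in the gene, so its higher remainder says nothing about position in the exon.

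SMAD6 also had more sites outside DRACH that fell than any other of these genes, 9 of the 21. SMAD6 66703575 (ggAcg) had 29.5% and 30.2% with STM3675 and 89.3% and 83.3% with DMSO. SMAD6 66702672 (ggAtt) had 17.9% and 22.5% with STM3675 and 67.3% and 74.2% with DMSO. SMAD6 66703788 (gtAct) had 5.60% and 8.47% with STM3675 and 63.6% and 59.2% with DMSO. Each of these 3 sites differs from DRACH in a single place: its last base, the base after the adenosine or the base before it.

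Over the 9 genes, 16 sites outside DRACH were at 25% or more with DMSO, and 15 of them were lower with STM3675, beside 67.4% of all such sites in the table. The exception was SMAD6 66703076 (cgAgc), with 15.3% and 19.4% with STM3675 and 37.5% and 18.9% with DMSO. Its DMSO libraries lay further apart than the groups did (adjusted p = 0.29, quasi-binomial test with limma).

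SMAD7, which blocks TGF-beta receptors and recruits ubiquitin ligases to them, had 20 reads in all 4 CAOV3 libraries at 1 of its 29 sites. At SMAD7 48921275, on the minus strand of chromosome 18 in last exon 4, the level was 3.79% and 3.51% with STM3675 and 25.0% and 37.2% with DMSO. The site was lower with STM3675 (adjusted p = 3.3e-07, quasi-binomial test with limma). SMAD7 48921756 (ggAca), the most methylated SMAD7 site in A549, EFO21, OE21 and SKOV3, was not tested in CAOV3 because 1 DMSO library had 14 reads. It had 4.00% and 12.8% with STM3675 at 50 and 47 reads, and 71.4% and 88.5% with DMSO at 14 and 26 reads.

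Of the nuclear corepressors, TGIF1, a homeodomain protein, had 15 of 16 tested DRACH sites lower, and its summed level was 8.75% ± 0.39 with STM3675 and 54.4% ± 0.96 with DMSO. TGIF1 3457774, on the plus strand of chromosome 18 and 410 nt into last exon 3, had 24.1% and 20.3% with STM3675 and 100% and 99.5% with DMSO. SKIL had 32 of 40 lower, and its summed level was 12.1% ± 0.24 with STM3675 and 56.3% ± 1.2 with DMSO. At SKIL 170360898, on the plus strand of chromosome 3 and 1200 nt into internal exon 2, the level was 31.4% and 34.8% with STM3675 and 97.4% and 97.2% with DMSO. The libraries of each treatment lay close together at both sites.

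SKI, the corepressor after which SKIL is named, kept more m6A with STM3675 than the other genes. It had 16 of 18 tested DRACH sites lower, and its summed level was 23.4% ± 0.79 with STM3675 and 80.7% ± 1.6 with DMSO, the highest of the 10 genes under either treatment. SKI 2308291, on the plus strand of chromosome 1 and 1715 nt into last exon 7, had 66.7% and 57.6% with STM3675 and 100% and 100% with DMSO. Its ratio of 0.621 was the highest among the DRACH sites of the 10 genes at 50% or more with DMSO, at 33 to 57 reads per library, and it still fell (adjusted p = 4.8e-07, quasi-binomial test with limma). SKI 2308284, 7 nt before it, had 7% with STM3675 and 58.1% with DMSO, so neighbouring listed sites on this exon ended at very different levels.

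Of the 14 SKI DRACH sites at 50% or more with DMSO, 7 still had 25% or more with STM3675, and all 7 were at 95% or more with DMSO. In the other 8 tested genes 5 of 56 such sites did, 3 in SKIL and 2 in SMAD6, and among all genes 10.6% of 29059. A high starting level goes with a higher remainder in the whole table: of 5234 DRACH sites at 95% or more with DMSO, 42.1% kept 25% or more with STM3675. In that class it was 7 of 7 sites in SKI, 3 of 3 in SKIL and 11 of 17 over the 9 genes. The share of SKI sites that kept m6A was not tested against other genes, because the sites of a gene are not replicates.

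Over all 9 genes, the gene-level test on DRACH reads called each of them lower with STM3675, beside 91.1% of 10209 genes, with adjusted p between 3.9e-21 and 4.8e-05 (quasi-binomial test with limma). PMEPA1 was not tested. Its summed level over 15 DRACH sites was 10.4% ± 0.22 with STM3675 and 43.3% ± 0.93 with DMSO.

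The PMEPA1 site that brought the gene into the set is PMEPA1 57649648, on the minus strand of chromosome 20, 2951 nt into last exon 4 of 4203 nt (57648396 to 57652598). Its level was 60.8% and 66.1% with STM3675, at 97 and 62 reads, and 62.5% and 46.8% with DMSO, at 104 and 77 reads. The higher DMSO library lay between the STM3675 libraries, and the ratio of the means was 1.16. The site was chosen for this ratio, so the values carry no test. Of 244 tested sites of the table with the same 5 bases, this was the only one at 50% or more with DMSO. The medians over those 244 were 6.67% with STM3675 and 7.84% with DMSO.

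The rest of the PMEPA1 last exon did not share this pattern. PMEPA1 57649635 (ggAcc), a DRACH site 13 nt further along the transcript, had 10.0% and 7.41% with STM3675 and 28.1% and 27.5% with DMSO. PMEPA1 57652386 (gaAct), 213 nt into the exon, had 9.84% and 4.76% with STM3675 and 86.7% and 79.4% with DMSO. PMEPA1 57652065 (ggAca) had 39.4% and 14.9% with STM3675 and 93.8% and 100% with DMSO, at 24 to 47 reads. At these 3 sites every STM3675 library lay below both DMSO libraries.

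The ratios of the 13 PMEPA1 DRACH sites at 25% or more with DMSO ran from 0.0879 to 0.728, with a median of 0.280. The highest 2 of these lie closest to the retained site after PMEPA1 57649635. PMEPA1 57649840 (ggAca), 192 nt before it, had 30.9% and 19.6% with STM3675 and 37.7% and 31.7% with DMSO, a ratio of 0.728. PMEPA1 57649819 (ggAct), 171 nt before it, had 22% and 16.7% with STM3675 and 25.6% and 38.9% with DMSO, a ratio of 0.598. At both sites the STM3675 libraries were below the DMSO libraries, by less than 4 points at the closest. Outside DRACH, the other 20 PMEPA1 sites with enough reads had means of 5.4% to 19.7% with STM3675 and 2.63% to 27.1% with DMSO.

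**Figure D2:**
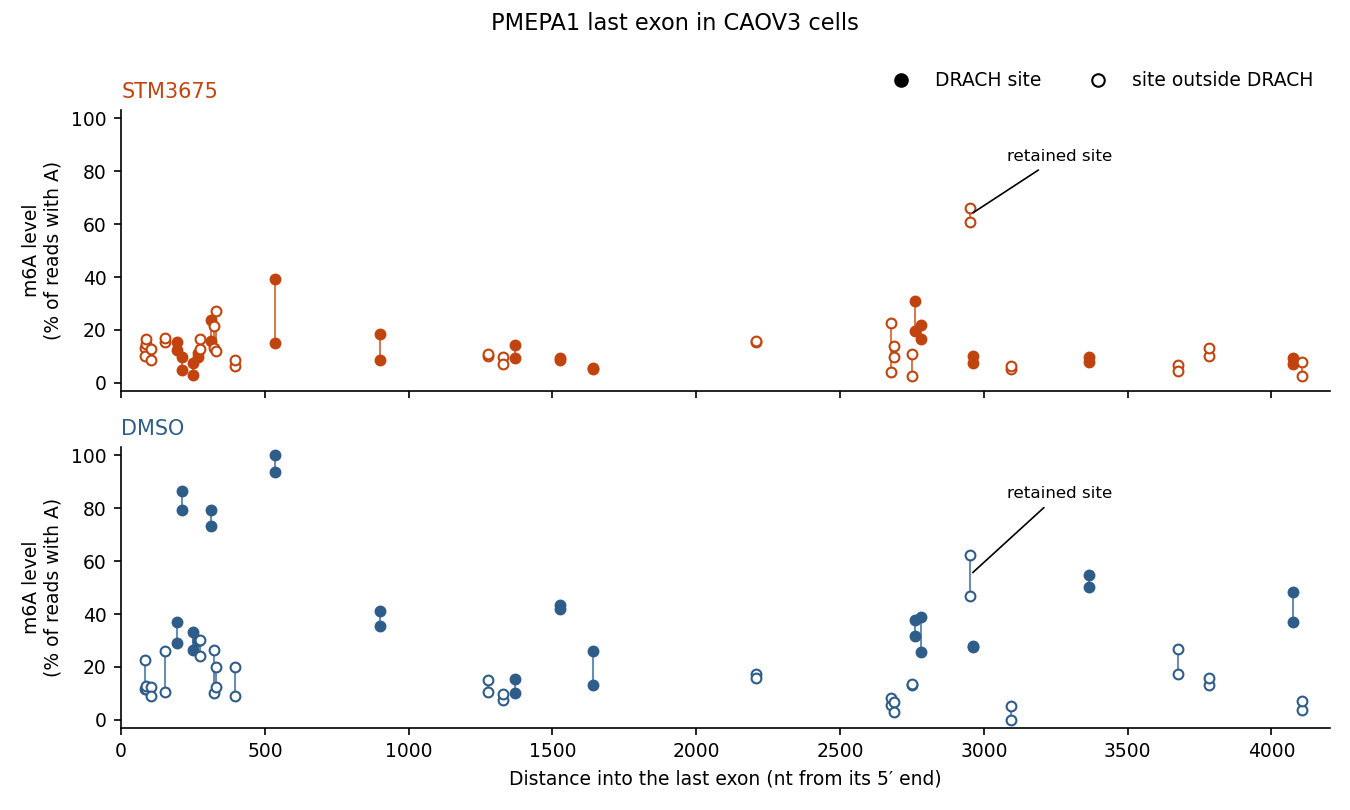
m6A level (percent of reads with A) of PMEPA1 sites along the last exon (nt from its 5′ end) in CAOV3 with STM3675 (upper panel) and DMSO (lower panel), with 1 point per library and a line joining the libraries of a site. Filled points are DRACH sites and open points are sites outside DRACH, and the retained site, at 60.8% and 66.1% with STM3675, is the only one above 40% in the upper panel.

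Among the lines with DMSO the retained PMEPA1 site was methylated wherever it had reads. It had 61.3% and 61.4% in OE21, 62.5% and 46.8% in CAOV3, 42.4% and 55.4% in COV644, 37.0% and 47.0% in A549 and 28.3% and 33.3% in SKOV3. SKOV3 lay below every other line, and the ranges of CAOV3, COV644 and A549 overlapped. Both OE21 libraries lay within the range of CAOV3. EFO21 had 0 reads at the site, so no test over the lines was made. OE21 was high here and low on average over other sites of the gene: over the 7 PMEPA1 DRACH sites with 20 reads in the other 10 libraries, the mean level was 19.5% ± 1.9 in OE21, against 27.8% to 35.6% in the other 4 lines. OE21 was not low at PMEPA1 57652386, which is not among the 7, with 89.3% and 83.3% at 28 and 24 reads. SKOV3 libraries lay far apart over the 7 sites, at 23.4% and 36.6%.

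At a second PMEPA1 site COV644 stood apart. PMEPA1 57652065 had 33.3% and 54.3% in COV644, at 18 and 35 reads, against 97.5% and 97.0% in A549, 93.8% and 100% in CAOV3, 100% and 88.9% in OE21 and 100% and 100% in SKOV3. SKOV3 had only 20 and 9 reads there. The COV644 libraries did not overlap those of any other line, and the site was too shallow to be tested.

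The second comparison asked how m6A at these genes varies among the 6 lines with DMSO. It could be made at 140 member sites with 20 reads in all 12 libraries, 100 of them DRACH sites, and at none of PMEPA1. Of the 100 DRACH sites 50 differed among lines, beside 39.1% of all such sites, and of the 40 sites outside DRACH 7 did (17.5%), beside 40% and over both kinds 39.5% of all 68873 sites (quasi-binomial test with limma, adjusted over those 68873). Leaving out 1 library at a time gave 3 (without COV644 replicate 2 or OE21 replicate 1) to 13 (without CAOV3 replicate 2 or SKOV3 replicate 1) called outside DRACH. The range between the highest and the lowest line had a median of 14.9 points over the 100 sites, next to 14.7 points over all DRACH sites. These calls rest on read counts and a spread common to all sites: with limma on log odds 3 of the 100 were called, and 373 of all 38621.

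The level outside DRACH, taken here as the background, differed between the lines. The median level outside DRACH was 4.27% in both COV644 and OE21, and 10.5% in A549, 11% in CAOV3, 12.2% in EFO21 and 12.7% in SKOV3. Within the 4 lines of higher background 20 member DRACH sites differed, as did 5771 of all DRACH sites. Between COV644 and OE21 alone 0 member DRACH sites did. Each of these fits took the sites with 20 reads in its own libraries. The sites tested were thus not limited to the 100, and their number was not counted. The fit of COV644 and OE21 called only 1 of all DRACH sites, so it could hardly call any site and its 0 carries no weight. Over the 100 DRACH sites COV644 and OE21, alike in background, had means of 54.3% ± 0.44 and 46.6% ± 0.039. The part of the background in the line differences was not tested.

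The mean over the 100 DRACH sites put the lines in the order CAOV3, COV644, A549, SKOV3, EFO21 and OE21. The means were 56.4% ± 0.89 in CAOV3, 54.3% ± 0.44 in COV644, 51.0% ± 0.73 in A549, 50.3% ± 0.57 in SKOV3, 49.6% ± 0.092 in EFO21 and 46.6% ± 0.039 in OE21. CAOV3 and COV644 were above all other lines and OE21 was below them, while A549 and SKOV3 differed by less than their spread. Over all 38621 DRACH sites CAOV3 was also highest and OE21 lowest, with means of 48.4% and 40.3%.

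Single sites followed the same order. CAOV3 was higher than the mean of the other 5 lines at 25 of the 100 sites and lower at 0, beside 17.5% and 0.482% of all DRACH sites. OE21 was higher at 0 and lower at 22, beside 1.23% and 19.1%. COV644 was higher at 17 and lower at 3, beside 9.9% and 7.6%. A549 was higher at 1 and lower at 4 (2.24% and 2.85%), EFO21 at 0 and 8 (1.72% and 2.87%) and SKOV3 at 0 and 4 (0.924% and 3.28%). Of the 4 sites lower in A549, 3 belong to SMAD2.

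**Figure D3:**
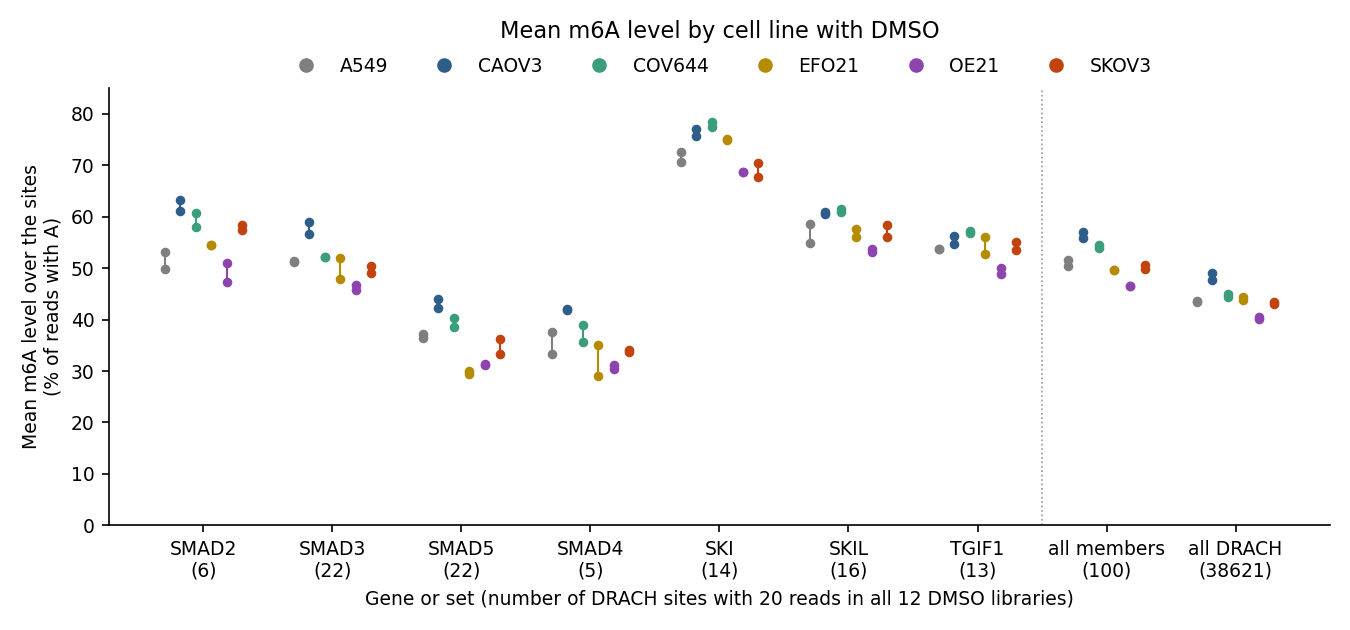
Mean m6A level (percent of reads with A) over the DRACH sites of a gene with 20 reads in all 12 DMSO libraries, with 1 point per library and a line joining the 2 libraries of a cell line. SMAD6 and SMAD7 have 1 such site each and PMEPA1 none, so they are not drawn, and OE21 lies lowest over the 100 member sites, at 46.6%.

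Of the genes with 5 or more sites, SKI had the highest mean level in each of the 6 lines, and SMAD4 and SMAD5 the lowest. SKI ran from 68.7% ± 0.0081 in OE21 to 78.0% ± 0.66 in COV644 over 14 sites. SMAD6 had only 1 site here. Over the DRACH sites with enough reads in a given line, SMAD6 was above SKI in A549, CAOV3, EFO21 and SKOV3. The means of SMAD6 and SKI were 69.8% and 61.5% in SKOV3, and 70.7% and 70.6% in A549. In COV644 and OE21 SMAD6 had 1 such site and lay below SKI. SMAD4 ran from 30.8% ± 0.49 in OE21 to 42.0% ± 0.053 in CAOV3 over 5 sites. SMAD3, over 22 sites, ran from 46.2% ± 0.68 in OE21 to 57.9% ± 1.6 in CAOV3. SMAD2 (6 sites), SKIL (16 sites) and TGIF1 (13 sites) likewise had their lowest means in OE21, at 49.1%, 53.5% and 49.5%.

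SMAD5 departed from that order. EFO21 had the lowest level, 29.9% and 29.4% over 22 sites, below OE21 at 31.2% and 31.5%, and CAOV3 the highest, 42.3% and 44.1%. Of the 8 member sites called lower in EFO21, 7 were in the last exon of SMAD5. At SMAD5 136179740 (gaAct, 2404 nt into that exon) EFO21 had 7.30% and 4.78%, against 29.6% and 26.5% in A549, 22.9% and 23.5% in CAOV3, 19.9% and 18.8% in COV644, 9.38% and 24.4% in OE21 and 12.8% and 9.09% in SKOV3. EFO21 lay below every other line there, 13.6 points under their mean (adjusted p = 1.2e-09 for EFO21 against the other 5, quasi-binomial test with limma).

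COV644 was low at a few SMAD3 sites although it was high in most genes. At SMAD3 67194048 (ggAct, last exon 9) it had 47.9% and 43.1%, against 83.8% and 80.8% in CAOV3 and between 55.1% and 71.0% in the remaining lines. COV644 was 20.3 points under the mean of the other 5 lines (adjusted p = 0.0091, quasi-binomial test with limma). No COV644 library reached the lowest library of another line.

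The site with the largest range of all, SMAD3 67190420 (agAct), lies 8 nt into last exon 9. It had 9.09% and 14.0% in OE21, against 50.0% and 47.8% in COV644, 51.4% and 42.6% in CAOV3, 33.2% and 29.3% in A549, 25.6% and 34.8% in EFO21 and 28.6% and 28.6% in SKOV3. OE21 lay below all other lines, and A549, EFO21 and SKOV3 overlapped (adjusted p = 0.00036 over the 6 lines, quasi-binomial test with limma). This site was still called by limma on log odds, but not within the 4 lines of higher background. SMAD5 136174454 (gaAct, internal exon 7) had the same high lines: 49.0% and 52.3% in COV644 and 46.2% and 41.1% in CAOV3, against 10.1% and 24.2% in OE21. Within the 4 lines of higher background it was not called (adjusted p = 0.23, same test).

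SKI 2307289 (ggAcc) ranged over 34.5 points, with 83.3% and 84.1% in COV644 and 48.5% and 50.0% in OE21 (adjusted p = 0.014 over the 6 lines, quasi-binomial test with limma). SKIL 170360760 (gaAct) ranged over 28.8 points, with 71.5% and 79.0% in COV644 and 50.7% and 42.1% in OE21. The SKI call was lost without COV644 replicate 2 (adjusted p = 0.15) and without OE21 replicate 1 (adjusted p = 0.059, same test), and within the 4 lines of higher background, where SKIL 170360760 was still called. The largest range in TGIF1 was 19.8 points at TGIF1 3457513, with COV644 highest at 70.5% and 73.9%. It was no longer called without COV644 replicate 2 (adjusted p = 0.060, same test) or within the 4 lines of higher background (adjusted p = 0.73).

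In SMAD2 5 of the 6 tested DRACH sites differed among lines, and its mean over the 6 was 62.3% in CAOV3 and 49.1% in OE21. The call at its site of largest range was less stable, as was that of SMAD7. The largest range in SMAD2 was 20.3 points at SMAD2 47841593 (adjusted p = 0.046), and in SMAD7 21.2 points at SMAD7 48921275 (adjusted p = 0.028, both by the quasi-binomial test with limma). The SMAD2 call was lost without replicate 1 of A549, COV644 or OE21 or replicate 2 of CAOV3, COV644 or EFO21, with adjusted p of 0.053 to 0.42 in the same test, and at a minimum of 10 reads (adjusted p = 0.057). The SMAD7 call was lost without replicate 2 of A549 or CAOV3 or either OE21 library, with adjusted p of 0.070 to 0.18. Neither was called within the 4 lines of higher background (adjusted p = 0.12 for SMAD2 and 0.53 for SMAD7). SMAD4 51048760, with 15.2% and 9.43% in EFO21 and 23.9% to 37.0% in the other lines, was not called (adjusted p = 0.073, same test), but was without SKOV3 replicate 1 (adjusted p = 0.031) or replicate 2 (adjusted p = 0.039). SMAD6 66702536 (ggAtt) was not called (adjusted p = 0.17, same test).

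**Figure D4:**
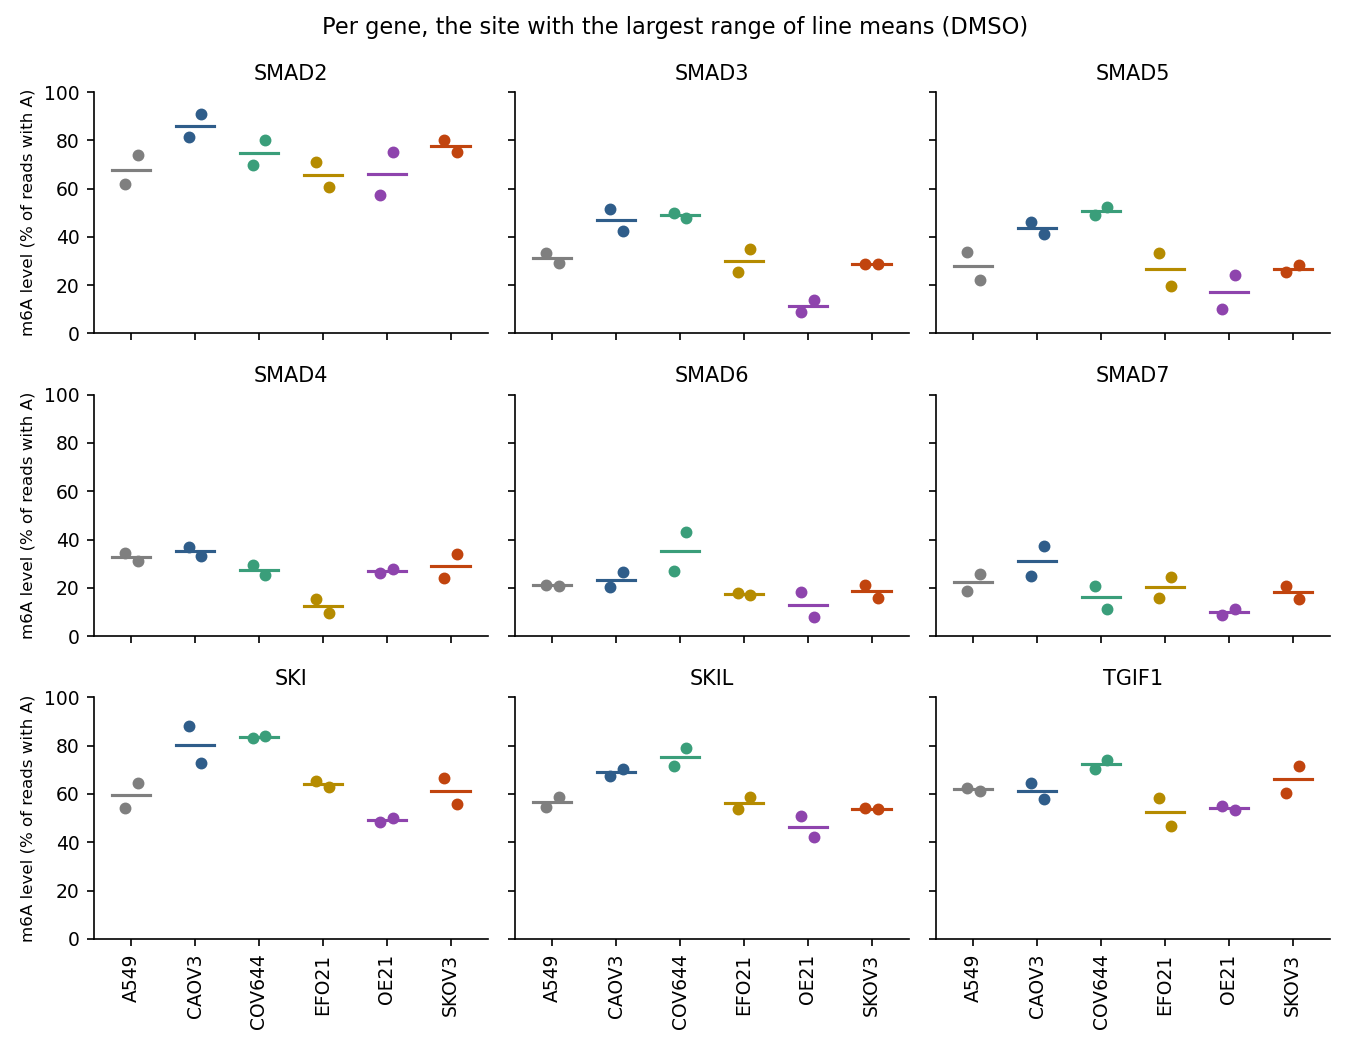
m6A level (percent of reads with A) in each DMSO library (points) and line mean (bars) at the site of each gene with the largest range of line means; PMEPA1 had no site with 20 reads in all 12 libraries. OE21 is lowest at the sites of SMAD3, SMAD5, SMAD6, SMAD7, SKI and SKIL, for example 9.09% and 14.0% at the SMAD3 site, and EFO21 at those of SMAD2, SMAD4 and TGIF1.

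Sites at nearly full methylation had smaller ranges, which 100% bounds from above. At 20 of the 100 DRACH sites the mean over the lines was 90% or more, and there the range between lines had a median of 5.46 points. Of these 20 sites 3 were called, and the share called among all DRACH sites of this level was not counted. These ranges went from 1.41 points at SMAD3 67194916 to 12.1 points at SMAD4 51078463, which had 93.2% and 78.3% in OE21 and 98.7% and 97.0% in CAOV3 and was not called (adjusted p = 0.094, quasi-binomial test with limma). SMAD3 67194916 had between 96.7% and 99.2% in every DMSO library, and TGIF1 3457774 between 95.6% and 100%.

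In SMAD7 the sites with enough reads showed m6A in the lines where the gene was well covered. Of its 12 DRACH sites 11 had 20 reads in both libraries of A549, 10 in SKOV3, 9 in EFO21, 7 in OE21, 3 in COV644 and 1 in CAOV3. SMAD7 48921756 had 90.9% and 98.0% in A549, 98.8% and 98.4% in EFO21, 90.9% and 87.5% in OE21 and 94.2% and 91.7% in SKOV3. In CAOV3 with STM3675, 6 of these sites had enough reads. At the 5 of them also covered in EFO21 and SKOV3, the mean was 7.17% ± 0.42 in CAOV3 with STM3675, against 47.7% ± 1.9 in EFO21 and 41.7% ± 1.9 in SKOV3 with DMSO. Line and treatment differ together here, so their parts cannot be told apart.

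Read coverage, the A and G reads summed over a gene's listed sites and scaled to CPM, was compared next. It stands in for RNA level but counts a read at each site it covers. In bulk RNA, fewer cells that express a gene and less of its RNA per cell cannot be told apart. With STM3675 in CAOV3, coverage was higher for 3 of the 9 tested genes, beside 20.4% of all genes, and lower for 1, beside 18.7% (edgeR's quasi-likelihood test, adjusted over 13717 genes). The median log2 fold change of all genes was -0.01.

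Both inhibitory SMADs had higher coverage with STM3675. SMAD7 had 33.4 and 35.1 CPM with STM3675 and 11 and 11.8 CPM with DMSO, the largest change of the set (log2 fold change 1.59 ± 0.11 SE, adjusted p = 6.7e-08, edgeR). SMAD6 had 289.7 and 259.0 CPM with STM3675 and 126.5 and 125.3 CPM with DMSO (log2 fold change 1.12 ± 0.10, adjusted p = 5.1e-07, edgeR). The groups were far apart in both genes. Of 31 SMAD6 sites with 20 reads in all 4 libraries, 31 had more coverage with STM3675 than with DMSO, with log2 ratios of 0.34 to 1.96. These sites come from the same libraries and near sites share reads, so they are not separate measurements.

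SMAD2 moved the other way. It had 123.1 and 128.2 CPM with STM3675 and 271.7 and 223.3 CPM with DMSO (log2 fold change -0.98 ± 0.10, adjusted p = 2.7e-06, edgeR). Coverage was lower at 12 of its 12 sites with enough reads, which again are not separate measurements, with log2 ratios of -1.24 to -0.10. SKI had 194.7 and 189.5 CPM with STM3675 and 149.0 and 130.2 CPM with DMSO, a smaller rise (log2 fold change 0.46 ± 0.11, adjusted p = 0.0044, edgeR). Without CAOV3 DMSO replicate 2 the SKI change was 0.37 and was no longer called (adjusted p = 0.058, edgeR).

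The other genes were not called, with adjusted p of 0.13 to 0.26 (edgeR). SKIL had 533.7 and 520.9 CPM with STM3675 and 486.4 and 430.3 CPM with DMSO. TGIF1 had 371.8 and 365.6 CPM with STM3675 and 318.1 and 331.1 CPM with DMSO, and SMAD5 had 304.2 and 279.7 against 254.0 and 263.9 CPM. In these 3 genes both STM3675 libraries lay above both DMSO libraries, and in SMAD3, SMAD4 and PMEPA1 both lay below. The share of all genes that separate in this way was not counted.

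SMAD3 and SMAD4 lay slightly lower. SMAD3 had 361.9 and 341.2 CPM with STM3675 and 398.7 and 374.1 CPM with DMSO. SMAD4 had 52.2 and 58.3 CPM with STM3675 and 68.4 and 59.1 CPM with DMSO. PMEPA1, not tested, had 163.5 and 163.4 CPM with STM3675 and 194.7 and 186.7 CPM with DMSO, a log2 fold change of -0.22.

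**Figure D5:**
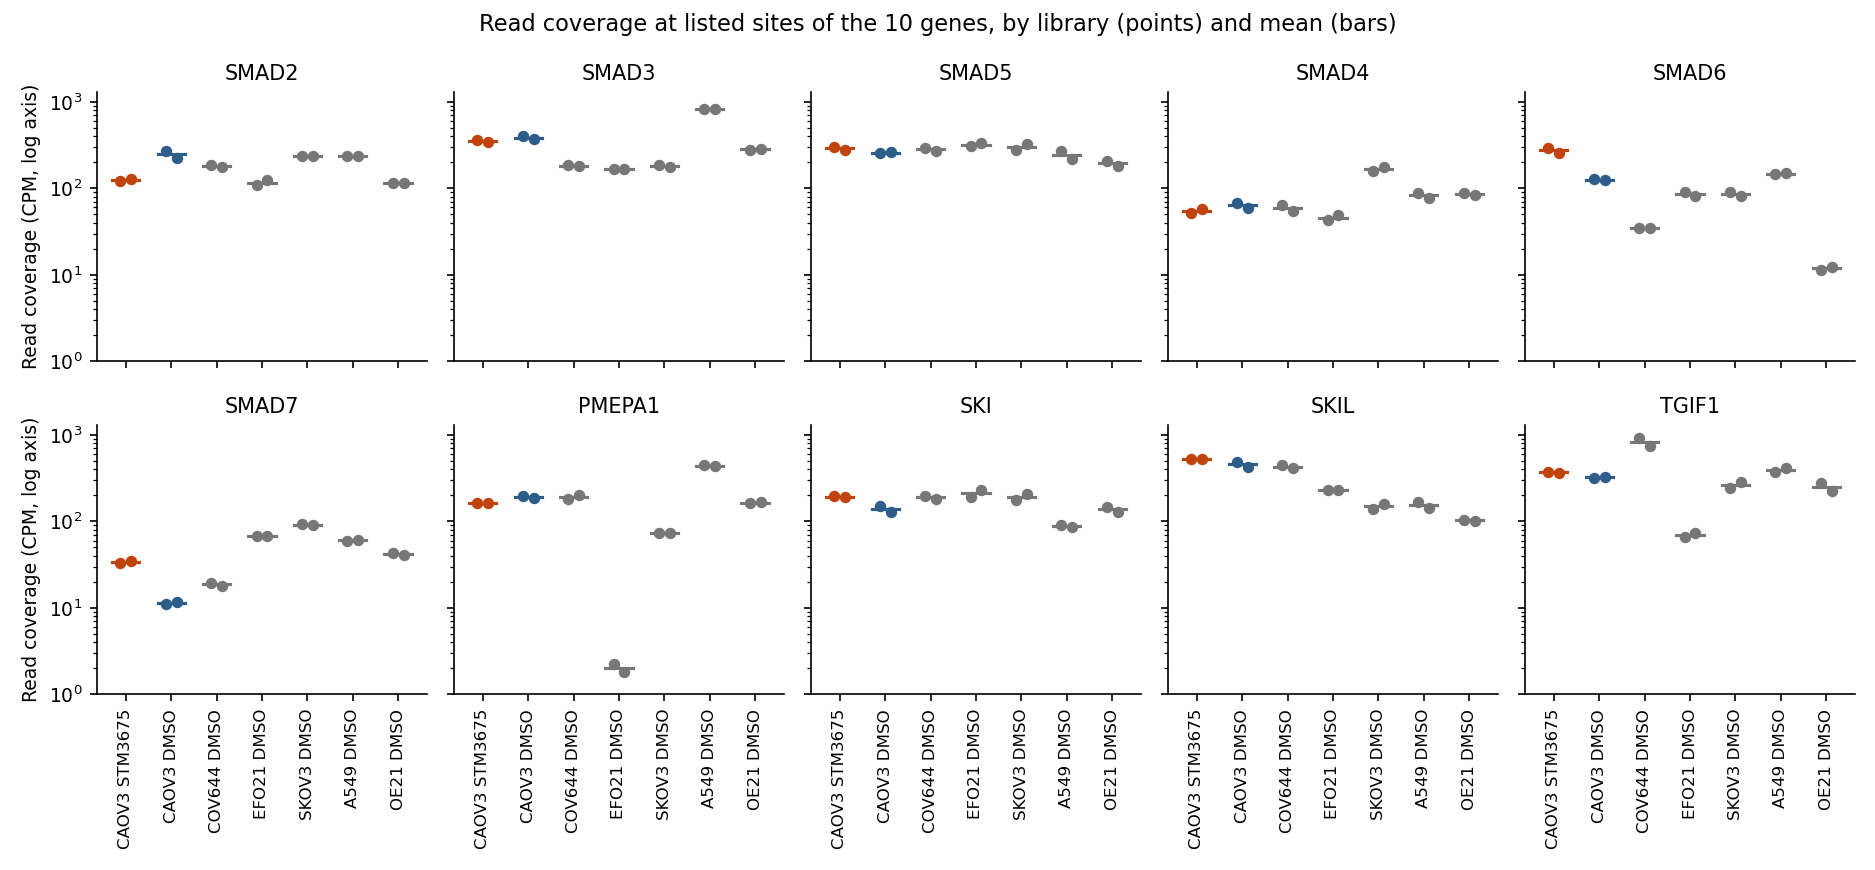
Read coverage (CPM over listed sites, log axis) of each gene in each library (points) with the mean of each group (bars), for CAOV3 with STM3675 (orange), CAOV3 with DMSO (blue) and the other lines with DMSO (grey). SMAD6 and SMAD7 are higher and SMAD2 is lower with STM3675 than with DMSO, and PMEPA1 is at 2.23 and 1.83 CPM in EFO21.

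Among the 6 lines with DMSO the coverage of all 10 genes differed, as did that of 99.3% of all genes (edgeR). PMEPA1 varied most. It had 444.1 and 441.9 CPM in A549, 182.8 and 204.1 in COV644, 194.7 and 186.7 in CAOV3, 162.5 and 166.4 in OE21, 73.5 and 73.6 in SKOV3 and 2.23 and 1.83 in EFO21, where only 38 and 24 reads were counted. The means of A549 and EFO21 differed 218-fold. COV644 and CAOV3 overlapped, and all other neighbours in that order were separate.

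TGIF1 and SMAD6 followed with 12-fold and 12.4-fold ranges. TGIF1 was highest in COV644, at 914.9 and 756.0 CPM, and lowest in EFO21, at 66.4 and 72.7 CPM. The order between them was A549, CAOV3, SKOV3 and OE21, of which SKOV3 and OE21 overlapped. SMAD6 was highest in A549, at 147.3 and 149.1 CPM, and lowest in OE21, at 11.5 and 12.4 CPM. Between these came CAOV3, then SKOV3 and EFO21, which overlapped, and then COV644 at 34.8 and 34.5 CPM.

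SMAD7 had its lowest coverage in CAOV3, 11 and 11.8 CPM, followed by COV644, OE21, A549, EFO21 and SKOV3, the last at 92.5 and 91.9 CPM. No neighbours in that order overlapped. With STM3675 the CAOV3 level of SMAD7, 33.4 and 35.1 CPM, lay between those of COV644 and OE21 with DMSO. With STM3675 the CAOV3 level of SMAD6 lay above that of each line with DMSO.

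SMAD3 had 816.1 and 821.5 CPM in A549 and 168.4 and 165.3 CPM in EFO21. SKIL had 486.4 and 430.3 CPM in CAOV3, overlapping COV644, and 105.0 and 100.2 CPM in OE21. SMAD4 had 157.2 and 175.0 CPM in SKOV3, above all other lines, and 43.1 and 48.6 CPM in EFO21. EFO21 was thus the lowest line for SMAD3, SMAD4, PMEPA1 and TGIF1. It was also the line with PECAM1 at 519 CPM, whose part in these differences was not tested.

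The ranges of the last 3 genes were smaller. SKI was lowest in A549, at 91.7 and 85.4 CPM, and highest in EFO21, at 192.5 and 228.6 CPM. SMAD2 ran from 114.9 and 114.7 CPM in OE21 to 271.7 and 223.3 CPM in CAOV3, and SMAD5 from 207.3 and 180.9 CPM in OE21 to 305.3 and 333.5 CPM in EFO21. SMAD5 had the narrowest range, 1.6-fold between line means, and EFO21, SKOV3 and COV644 overlapped in turn.

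The genes whose log2 coverage followed each of these most closely over the 14 libraries were found by Pearson's r, as a description. They were KCTD9 for SMAD2 (r = 0.92), LIN28B for SMAD3 (0.98), SYNC for SMAD4 (0.95), CIR1 for SMAD5 (0.94), ZNF428 for SMAD6 (0.98) and CNKSR3 for SMAD7 (0.92). For PMEPA1 it was AVL9 (0.97), for SKI SAMD9L (0.95), for SKIL TYW3 (0.98) and for TGIF1 LARP4B (0.97). The libraries fall into 7 pairs, so these values mostly describe the lines.

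The rest of the pathway was described by 5 lists of other genes, chosen with earlier results of these data known. In CAOV3, 46 of their 72 genes had DRACH sites to test and 45 were lower with STM3675 (97.8%), beside 91.1% of all genes. The genes named next have the 2 largest and the 2 smallest differences of their list.

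Ligands were lower in 5 of 5 genes, with differences of -61.1 points in GDF11 and -54.1 in INHBB, which encodes an activin subunit, and -36.2 in GDF15 and -29.1 in TGFB1, which encodes TGF-beta 1. Receptors were lower in 8 of 8, with -63.6 points in TGFBR3, -63.1 in the activin receptor gene ACVR1B, -30.6 in TGFBR2 and -18.9 in ACVR2A. TGFBR2, the type II receptor for TGF-beta, had 7.16% ± 1.7 with STM3675 and 37.8% ± 0.43 with DMSO. Extracellular regulators were lower in 8 of 8, with -59.1 points in THBS1, -55.6 in LTBP2, -24.4 in the BMP antagonist GREM1 and -17.2 in LTBP4.

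Intracellular regulators were lower in 11 of 11, with -74.0 points in the ubiquitin ligase gene NEDD4L, -49.8 in SMAD1, a BMP SMAD like SMAD5, -18.3 in WWP1 and -12.8 in USP15. Target genes were lower in 13 of 14, with -63.7 points in ID2, an inhibitor of DNA binding, -55.8 in JUNB and -14.6 in VIM. The exception was FN1, which encodes fibronectin. It had 1 site, at 12.8% ± 4.0 with STM3675 and 15.3% ± 15 with DMSO (adjusted p = 0.76, quasi-binomial test with limma).

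Coverage of the 67 tested genes of these lists was higher with STM3675 in 21 (31.3%) and lower in 9 (13.4%), beside 20.4% and 18.7% of all genes (edgeR). By list the counts higher and lower were 3 and 1 of 11 ligands, 3 and 1 of 11 receptors, 4 and 1 of 12 extracellular regulators, 5 and 3 of 16 intracellular regulators and 6 and 3 of 17 target genes. The genes named next were chosen after their coverage was seen. BAMBI, a pseudoreceptor that dampens TGF-beta and BMP signals, had a log2 fold change of 2.80 ± 0.12, and ID2, a BMP target, of 1.64 ± 0.11. TGFBR2 was lower, at -0.44 ± 0.12. CCN2, a TGF-beta target, was not called, at 0.17 ± 0.13.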

How the data were processed

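Polyadenylated RNA of 14 libraries, 2 for each of 7 groups named by the labels, was analysed by GLORI. Per the submitters' processing notes, cutadapt and STAR were used, with GRCh38 as the build; the site caller, settings and versions are not given there. The authors deposited, for each site and library, the count of A or G reads and the A fraction. Columns whose names start with D were taken as DMSO and those with T as STM3675. Fraction times count was whole within 1e-06 for all 5719182 values, which gave the A and G counts. The sources do not say whether duplicate reads were merged, so errors from counting are lower limits.

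Each site with 20 reads in every library compared was fitted by a quasi-binomial logistic model. Its dispersion was moderated with squeezeVar of limma 3.58.1 in R 4.3.3, which gave every site the same value (1.67 in CAOV3, 1.71 over the lines), and floored at 1. Coverage was tested with edgeR 4.0.16 (quasi-likelihood, TMM, filterByExpr) in 1 fit of 7 groups. All p-values were adjusted by the Benjamini-Hochberg method over all sites or genes, with a threshold of 0.05. Both models were tested on simulated data. Figures used Python 3.11.15, pandas 2.3.3 and matplotlib 3.10.9, and other steps the R package data.table, version 1.17.8.

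The members and lists were chosen with earlier results of these data known. Named sites are the PMEPA1 site and, per gene, those with the highest DMSO level, the highest ratio and the largest range of lines; other sites named were chosen after their values were seen. Alternatives were minima of 10 and 50 reads, limma on log odds, a replicate block, sites listed by another line, leaving out each library, and for coverage DESeq2 1.42.0, its size factors, no filter and DRACH sites only. Comparisons within the 4 lines of higher and the 2 of lower background were added after the data were seen. Symbols of all 10 genes matched RefSeq genes of GRCh38.p14.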

Additional observations from a re-analysis of the deposited data

How the results depend on the processing

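In CAOV3 the direction of each member result held under every alternative tried. Leaving out 1 library at a time, 109 to 122 of the member DRACH sites and 15 to 18 sites outside DRACH were lower with STM3675, 0 were higher, 9 genes were lower, and of all DRACH sites 40519 to 50436 were lower. With 50 reads, a minimum that leaves fewer sites to test, 33027 of all DRACH sites were lower. With limma on log odds 1 member site was higher, SKIL 170395438 (tcAtt), at 5.00% and 9.52% with STM3675 and 0% and 0% with DMSO. Calls among lines were less stable, but the sites tested also changed with the minimum of reads and with the libraries kept. How many sites each alternative tested was not counted. Of the member DRACH sites 30 differed with 50 reads, 3 with limma, 20 within the 4 lines of higher background and 0 within the other 2, and 37 to 52 when leaving out 1 library. Outside DRACH these counts were 3, 0, 3 and 0, with 17 at 10 reads and 3 to 13 when leaving out 1 library. Of all DRACH sites 9896 differed with 50 reads, 373 with limma, 5771 within the 4 lines and 1 within the 2, and 11774 to 17165 when leaving out 1 library. The cause of these changes was not tested. In coverage 2 to 3 member genes were higher and 1 was lower when leaving out 1 library, and 10 differed among lines in each case.

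For m6A, deviations of same-numbered libraries had a correlation of -0.012 between CAOV3 with STM3675 and DMSO, and of -0.032 to 0.016 between lines. For coverage these correlations were -0.042 and -0.32 to 0.34. Such values cannot show whether the numbers pair the samples, so a replicate block was also fitted. With a replicate block, 107 member DRACH sites and 17 outside DRACH were lower, 0 were higher, 9 genes were lower, 49 DRACH sites and 8 outside DRACH differed among lines, and coverage was higher for 3 genes, lower for 1 and different among lines for 10. Of 617 other values recomputed for single sites and genes, 576 were called alike, 39 lost and 2 gained their call, and 0 changed direction; 34 of the 39 are ranges between lines. With the block SMAD2 47841593 was not called among lines (adjusted p = 0.067) and SMAD3 67190420 was not called lower with STM3675 (adjusted p = 0.059, both by the quasi-binomial test with limma). Depth limits SMAD7 in CAOV3, PMEPA1 in EFO21 and SMAD6 in OE21, where few or no sites had 20 reads.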
